A study of Mus musculus with 9 samples.

Results

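The nuclear genes for subunits of the mitochondrial respiratory chain and of ATP synthase were compared between osteosarcomas of mice with a p53-driven tumor and of mice with a Myc knockin. Members were protein-coding genes of the deposited count table, taken by their symbols. For complex I these begin with Nduf followed by a, b, c, s or v and a digit, and complex II is Sdha, Sdhb, Sdhc and Sdhd. Symbols of complex III begin with Uqcr, of complex IV with Cox and a digit from 4 to 8, and of complex V with Atp5. This gave 86 genes of the 55367 in the table, or of its 21899 protein-coding genes. Complex I had 38 members, complex II 4, complex III 8, complex IV 19 and complex V 17. The respiratory chain passes electrons from NADH and succinate to oxygen through complexes I to IV, and the proton gradient built on the way drives ATP synthase, complex V. A few core subunits are encoded by mitochondrial DNA and all others by nuclear genes, so the complexes are put together from the products of both genomes. Bone-forming osteoblasts use both glycolysis and oxidative phosphorylation, and MYC is a transcription factor known for raising genes of growth and mitochondrial metabolism in many cell types.

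RNA-Seq was done on whole tumors that arose spontaneously in genetically engineered mice. The p53-driven tumors (n = 4, F187, F325, F331 and F368) came from Col2.3-Cre/TrpP53fl/+ mice, in which Cre recombinase under the osteoblast-specific Col2.3 promoter acts on a floxed Trp53 allele. The Myc knockin tumors (n = 5, M351, M408, M9, M624 and M664) came from mice with the same Cre and floxed Trp53 allele (p53fl/+) and, in addition, c-MycT58A, a point-mutant Myc gene behind a Lox-Stop-Lox (LSL) cassette that Cre removes. The age of the mice is not stated in the labels.

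The Myc transcript was examined first, as a check of the labels. It stood at 46.2, 43.5, 67.1 and 60.4 CPM (counts over the TMM-normalized library size) in F187, F325, F331 and F368, and at 270, 520, 144, 1045 and 905 CPM in M351, M408, M9, M624 and M664. Each Myc knockin tumor was thus above every p53-driven tumor. This was a log2 fold change of 3.41 (standard error 0.59, edgeR adjusted p = 0.0217), and of 2.60 (standard error 0.44, edgeR adjusted p = 0.0300) without M624 and M664. With 1 tumor left out of the 9, the call was lost without F325 (edgeR adjusted p = 0.0813), F331 (0.0782) or F368 (0.0909). With 1 left out of the 7, it was lost without F325 (edgeR adjusted p = 0.0701), F331 (0.0616), F368 (0.0756), M351 (0.104) or M408 (0.0597). The tumors were also checked for the osteoblast lineage that the Cre driver marks. Of 10 osteoblast genes, led by the collagen gene Col1a1, 8 were detected in every tumor, while the osteocalcin genes Bglap and Bglap2 were at 0 counts in M408 and Bglap2 also in M624. Their summed level was 65480 to 141300 CPM in the p53-driven and 3610 to 41290 CPM in the Myc knockin tumors, and Runx2, a transcription factor of the osteoblast lineage, was lowest in M624 (9.18 CPM) and between 132 and 371 CPM in the rest.

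The libraries differed in ways that the groups do not account for. Total counts were 3026217 in F187, 10593069 in F325, 9498026 in F331 and 6853293 in F368, and 2716322 in M351, 4295475 in M408, 3532881 in M9, 17073285 in M624 and 15769788 in M664. M624 and M664 had the deepest libraries and nearly lacked Rn7sk, an abundant noncoding RNA without a poly(A) tail, with 3.47 and 6.35 CPM against 6545 to 10670 CPM in the other 7 tumors. Genes made of satellite repeats took 41.9% of the counts in F187, 64.1% in M351, 22.2% in M408 and 76.6% in M9, and at most 0.0229% in the others. The 86 members together held 2673 counts in M9, 5238 in M351 and 8402 in F187, but 205023 in M624 and 179173 in M664. A floor of 3 counts corresponded to 0.114 CPM in M624 and to 2.39 CPM in M9. M624 and M664 are both Myc knockin tumors, so that within the 9 tumors the kind of library and the genotype cannot be told apart for them, and the comparisons of members below are given with and without them.

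The respiratory chain as a whole did not move in 1 direction between the genotypes. Taking all 9 tumors, edgeR's quasi-likelihood test (fold change over 1.5 with an adjusted p below 0.05) called 1 member higher and 2 lower in Myc knockin tumors, of 82 members with enough counts to be tested. Over all 15365 genes tested, 2.26% were called higher and 3% lower, so the members' counts were close to this background. Without M624 and M664, no member was called higher and 3 were called lower of 79 tested, against 1.8% and 2.81% of 14308 genes. At an unadjusted p under 0.05, 4 members were higher and 5 lower in the 9 tumors, and 0 higher and 11 lower in the 7, where of all genes tested 14.9% were higher and 11.8% lower in the 9 tumors, and 12.4% and 13.3% in the 7. DESeq2 called 2 higher and 3 lower in the 9 tumors, and 0 higher and 6 lower in the 7. Over all genes tested, DESeq2 called 9.98% higher and 7.24% lower in the 9 tumors, and 5.997% and 8.34% in the 7. Calls by edgeR depended on single tumors for all genes alike. In the whole table, 2 genes were called higher and 6 lower without F325, 0 and 6 without F331, and 0 and 5 without F368, none of them members, and 0 members were also called without F187 or M351.

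What did change was the sign. The log2 fold change was positive for 58 of the 82 members in the 9 tumors, and for 15 of the 79 in the 7 tumors. Over all genes tested, 56.2% were positive in the 9 tumors and 53.7% in the 7. For 43 members it was positive with M624 and M664 and negative without them, 13 were positive and 21 negative in both, and 2 turned from negative to positive. The median over the tested members was 0.31 with M624 and M664 and -0.29 without them, beside medians over all genes tested of 0.14 and 0.08. Without M664 alone the members' median was 0.075. Scaling by upper quartiles gave 0.34 and -0.14 for the members beside 0.24 and 0.25 for all genes, and scaling by library size alone gave 0.39 and -0.87 beside 0.03 and -0.55. No direction can therefore be given for the respiratory chain genes as a whole that holds in both sets of tumors.

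**Figure D1:**
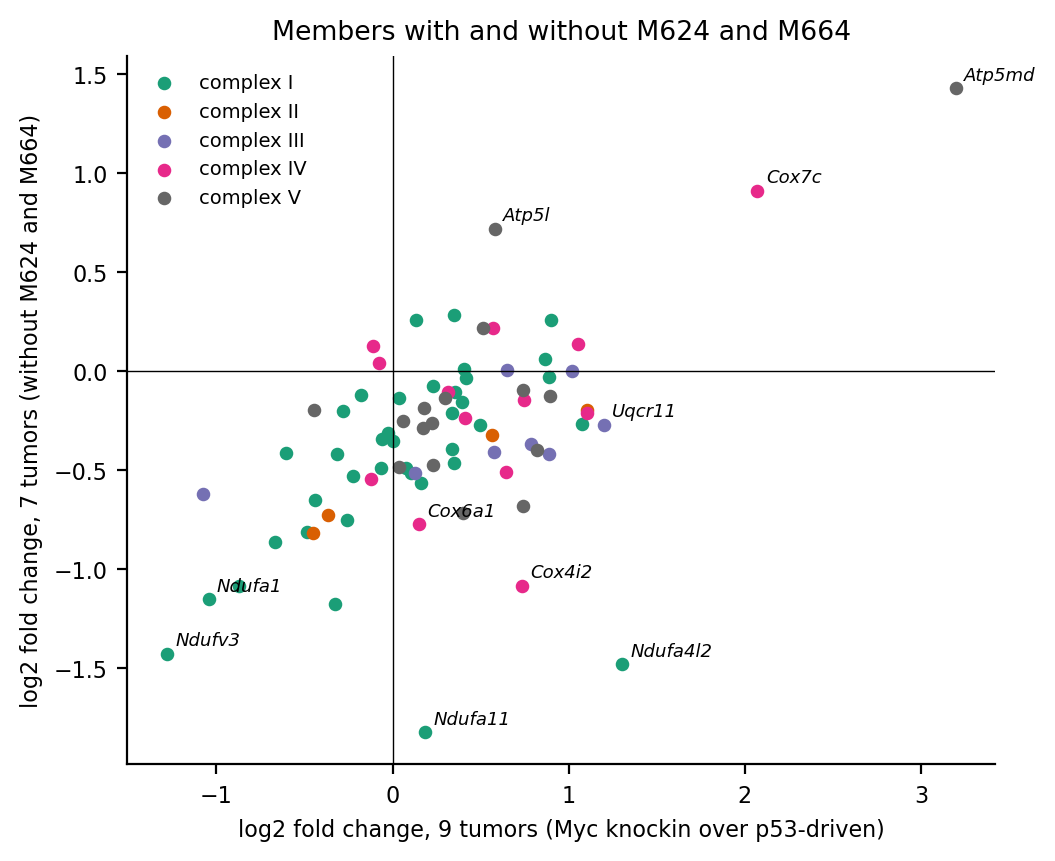
Each point is 1 member, with its log2 fold change (Myc knockin over p53-driven) in all 9 tumors on the horizontal axis and in the 7 tumors without M624 and M664 on the vertical axis, colored by complex. The lower right field holds the 43 members that were positive in the 9 tumors and negative in the 7.

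The levels per tumor show where this came from. Summed over all members, expression was 3319, 4037, 4812 and 3256 CPM in F187, F325, F331 and F368. The Myc knockin tumors M351, M408 and M9 lay at 3224, 3493 and 2130 CPM, whereas M624 and M664 reached 7812 and 7737 CPM. M408 thus lay within the range of the p53-driven tumors, M351 just below it and M9 further below, and M624 and M664 had more than any other tumor. As a share of the counts outside satellite genes, the members took 1.20% in M624 and 1.14% in M664, and 0.323% to 0.586% in the other 7. M664 was the highest tumor for 40 members and M624 for 22, while M9 was the lowest for 49.

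Among the 82 members, 49 were higher in both M624 and M664 than in each of the other 7 tumors, which is 59.8% of them, and 17.4% of all genes tested showed this order. The opposite order, both below the other 7, held for 2 members, Uqcrb and Atp5k, and for 14.1% of all genes. A comparison of the 5 tumors with few satellite reads, F325, F331 and F368 against M624 and M664, called 30 members higher and 2 lower, with 15.7% and 12.1% of 16495 genes called in these directions. The genotype and the kind of library coincide fully in that comparison and cannot be told apart. In the 7 tumors without M624 and M664, 16 of 79 members were lower in each Myc knockin tumor than in each p53-driven tumor and 0 were higher, and 14.3% and 9.11% of all genes were so ordered. With all 9 tumors, 3 members were lower without overlap, Ndufv3, Ndufa1 and Ndufc1, and 1 was higher, Cox6b2, against 7.54% and 5.41% of all genes. In whole tumors, fewer cells of a type and less RNA per cell cannot be told apart for any of these genes.

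**Figure D2:**
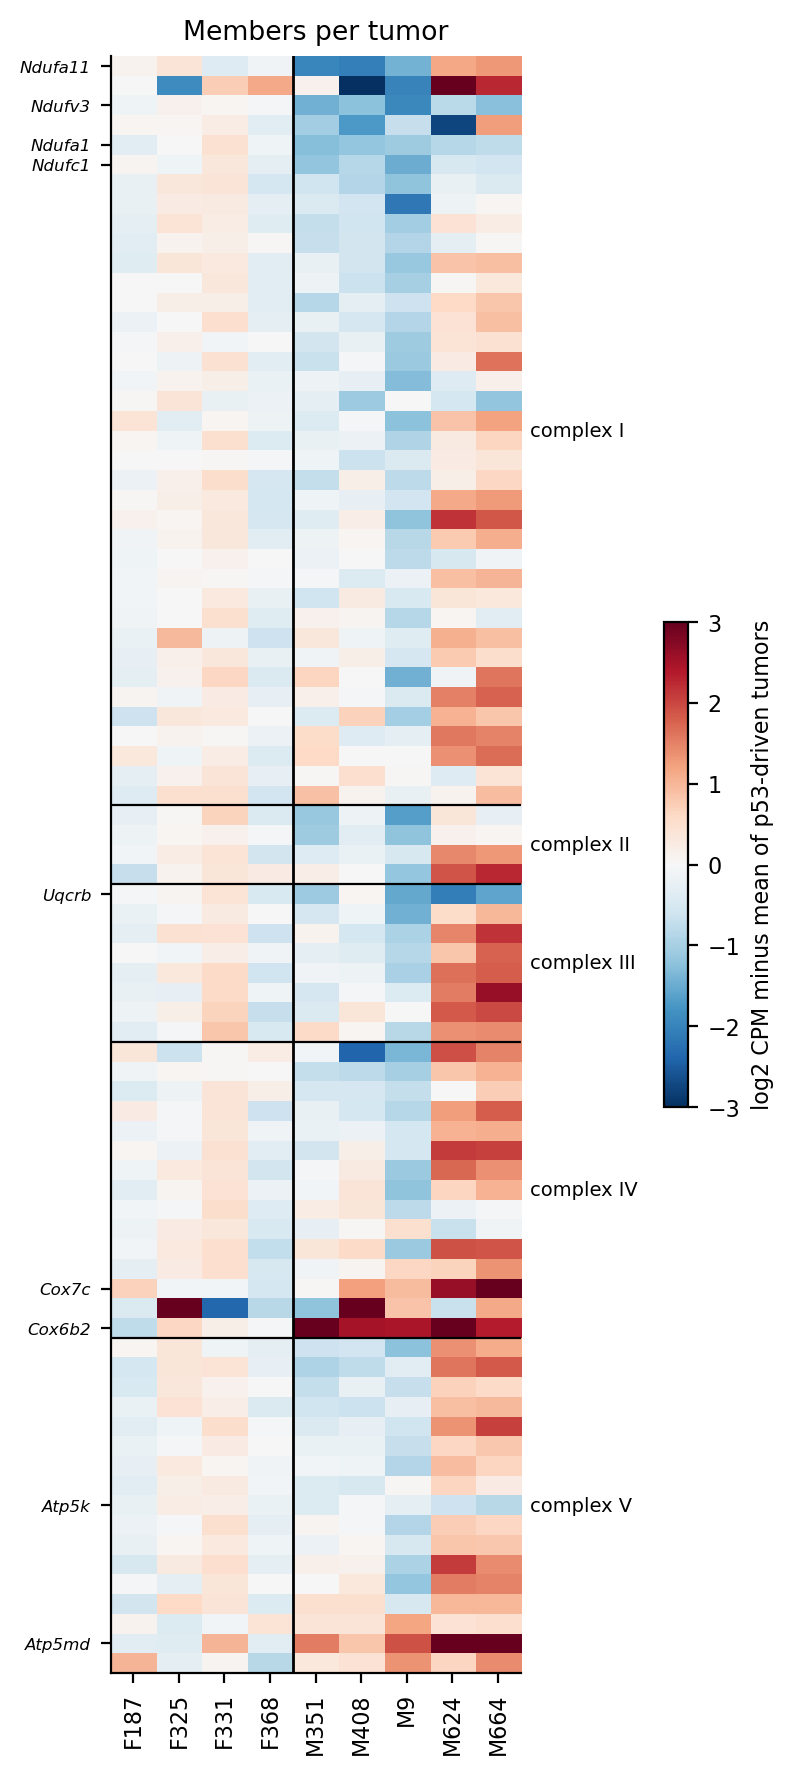
Log2 CPM of the 82 tested members (lines, grouped by complex, with some named) in each tumor (columns), as a difference from the average of the p53-driven group, from blue (lower) to red (higher), with the color scale ending at 3 in each direction. M624 and M664, at the right, are red for most members, and Ndufv3 and Ndufa1 are blue in each of the 5 Myc knockin tumors.

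Complex I, NADH:ubiquinone oxidoreductase, takes electrons from NADH and held all members that edgeR called lower in the 9 and in the 7 tumors. It also made up 38 of the 82 members tested in the 9 tumors. The median log2 fold change over its 38 members was 0.09 in the 9 tumors and -0.37 in the 7, and 2 members were called lower in the 9 tumors and 3 in the 7. Of all genes tested, edgeR called 3% and 2.81% lower, and DESeq2 called 7.24% and 8.34% lower. At an unadjusted p under 0.05, 4 members of the complex were lower in the 9 tumors and 8 in the 7, against 11.8% and 13.3% of all genes. None of its members was called higher by edgeR in either set, where 1 was higher at an unadjusted p under 0.05 in the 9 tumors and 0 in the 7, and DESeq2 called 0 higher in both. DESeq2 called 3 lower in the 9 tumors and 5 in the 7, among them Ndufv2, a core subunit of the NADH-oxidizing arm (DESeq2 log2 fold change -0.64, adjusted p = 0.0273 in the 7). The 3 that edgeR called are accessory subunits, which surround the catalytic core.

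Ndufv3, a small accessory subunit of the NADH-oxidizing arm, had the lowest log2 fold change of the complex in the 9 tumors, and Ndufa11 in the 7. It stood at 50.2, 60.8, 57.2 and 53.5 CPM in F187, F325, F331 and F368, and at 20.3, 23.4, 14.3, 31.6 and 23.0 CPM in M351, M408, M9, M624 and M664. All 5 Myc knockin tumors, M624 and M664 included, lay below all 4 p53-driven ones, and the means were 22.5 ± 6.23 CPM (SD, n = 5) and 55.4 ± 4.61 CPM (SD, n = 4). This gave a log2 fold change of -1.28 (standard error 0.26, edgeR adjusted p = 0.0275), and -1.43 (standard error 0.25, edgeR adjusted p = 0.0330) without M624 and M664. It was also called lower without the 4 satellite-bearing libraries, at -1.05 (edgeR adjusted p = 0.0355). In that comparison 12.1% of all genes were called lower, and genotype and kind of library cannot be told apart. Over all alternatives to the fit of 9 tumors the log2 fold change was negative, and the adjusted p ran from 0.000158 with DESeq2 to 0.330 with edgeR scaled by library size alone. The gene (ENSMUSG00000024038) lies at chr17:31520115-31531331 of mm10, and none of its transcript sequence is shared with another gene over a 76-base window. The call was lost when F187 (edgeR adjusted p = 0.0546), F325 (0.0948), F331 (0.102), F368 (0.109) or M351 (0.0528) was left out of the 9 tumors, while the log2 fold change stayed between -1.37 and -1.16. In the 7 tumors it was lost without F325, F331, F368, M351 or M408 (edgeR adjusted p from 0.0597 to 0.111).

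Ndufa1, a short membrane subunit needed to assemble complex I, is X-linked (ENSMUSG00000016427, chrX:37187588-37191163). It was expressed at 21.7, 26.8, 37.0 and 24.4 CPM in F187, F325, F331 and F368, and at 11.1, 11.9, 12.8, 14.9 and 15.7 CPM in M351, M408, M9, M624 and M664. Here too the groups did not overlap, and M624 and M664 lay on the side of the other Myc knockin tumors. In the 9 tumors its log2 fold change was -1.04 (standard error 0.27, edgeR adjusted p = 0.0478), and in the 7 it was -1.15 (standard error 0.27, edgeR adjusted p = 0.0465). The calls were near the threshold. In the 7 tumors leaving out any tumor other than F187 ended it (edgeR adjusted p from 0.0587 to 0.139), and in the 9 leaving out any other than M9 did, with edgeR adjusted p from 0.0514 without M664 to 0.166 without F331. Other alternatives gave an adjusted p from 0.00722 with DESeq2 to 0.381 with edgeR scaled by library size alone, and a negative log2 fold change in each. Among those that ended the call was the comparison of F325, F331 and F368 with M624 and M664 (-0.93, edgeR adjusted p = 0.0767). Removing satellite genes (edgeR adjusted p = 0.0559) or subtracting the genomic background (0.0539) from the 9 tumors ended it too. Ndufc1, another accessory subunit of the membrane arm, was the third member whose groups did not overlap, at 27.2 to 42.9 CPM in p53-driven and 12 to 23.9 CPM in Myc knockin tumors. Its log2 fold change of -0.87 (standard error 0.28) did not pass edgeR's test (adjusted p = 0.0848), nor did -1.09 in the 7 tumors (edgeR adjusted p = 0.0600), and DESeq2 called it lower in both (adjusted p = 0.0378 and 0.0127). Ndufc1 was chosen for the text after its values were seen.

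Ndufa11, a membrane subunit at the junction of the arms of complex I, split the Myc knockin tumors. Its expression was 18.6, 22.7, 13.1 and 15.9 CPM in F187, F325, F331 and F368. It fell to 4.31, 4.03 and 6.37 CPM in M351, M408 and M9, but M624 and M664 had 38.6 and 42.8 CPM. M351, M408 and M9 were therefore below, and M624 and M664 above, every p53-driven tumor. Leaving the pair out gave a log2 fold change of -1.83 (standard error 0.33, edgeR adjusted p = 0.0333), whereas it was 0.18 (standard error 0.69, edgeR adjusted p = 0.895) in all 9. In the comparison of F325, F331 and F368 with M624 and M664 it was called higher, at 1.26 (edgeR adjusted p = 0.0329), as were 15.7% of all genes. The counts behind the low values were 7 in M351, 22 in M408 and 8 in M9, and in the 7 tumors its call was lost without F325, F331, F368, M351 or M408 (edgeR adjusted p from 0.0611 to 0.115). Exons of Ndufa11 overlap those of Vmac on the opposite strand.

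Ndufa10, an accessory subunit, was abundant by CPM, with a mean of 74.3 ± 15.2 CPM (SD, n = 4) in p53-driven and 86.8 ± 29.8 CPM (SD, n = 5) in Myc knockin tumors. Its difference was smaller than the spread between tumors, at a log2 fold change of 0.23 (edgeR adjusted p = 0.664), and -0.08 without M624 and M664. Relative to exon length and averaged over the tumors, Ndufa4 was the most abundant, at 224 TPM (counts per kilobase, scaled to the same sum in every tumor), followed by Ndufa1 at 186 and Ndufa2 at 180. The order differed between tumors, with Ndufa1 first in F331, F368 and M9, Ndufa2 in F187 and M664, and Ndufa4l2 in M624, and on average Ndufb2 was the least abundant at 8.11.

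Ndufa4 was first assigned to complex I and is now placed in complex IV, and its paralog Ndufa4l2 is known as a target of hypoxia-inducible factor. Ndufa4l2 was 16.6, 4.28, 27.8 and 36.2 CPM in F187, F325, F331 and F368, and 17.9, 1.83, 3.98, 154 and 78.9 CPM in M351, M408, M9, M624 and M664. It varied within both groups, and its log2 fold change, the highest of complex I in the 9 tumors, was 1.30 (standard error 1.06, edgeR adjusted p = 0.458) with M624 and M664 and -1.48 (standard error 0.88, edgeR adjusted p = 0.307) without them. Ndufa4 itself had a log2 fold change of -0.26 (edgeR adjusted p = 0.673), and of -0.75 (edgeR adjusted p = 0.134) without them, where its groups did not overlap. For each 100 counts of Ndufa4 there were 3.85 to 55.1 counts of Ndufa4l2 in p53-driven and 3.32 to 135 in Myc knockin tumors, which overlapped (two-sided exact permutation test, p = 0.444). Exons of Ndufa4l2 overlap Shmt2 on the opposite strand.

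Complex II, succinate dehydrogenase, links the Krebs cycle to the chain and is the only complex with no subunit from mitochondrial DNA. None of its 4 members was called by edgeR or DESeq2 in either set of tumors, and at an unadjusted p under 0.05 there were 0 in the 9 tumors and 1, Sdhb, lower in the 7. Over the 4 members the median was 0.10 in the 9 tumors and -0.52 in the 7. The catalytic subunits and the membrane anchors differed in M624 and M664. Sdha, the flavoprotein, was 117, 144, 221 and 103 CPM in F187, F325, F331 and F368, and 63.4, 127, 44.6, 179 and 119 CPM in M351, M408, M9, M624 and M664. Sdhb, the iron-sulfur subunit, was 83.0, 95.8, 102 and 90.9 CPM in the p53-driven tumors, and 44.3, 74.9, 39.8, 101 and 97.2 CPM in the Myc knockin tumors in the same order. For both genes M624 and M664 lay within or beside the p53-driven range and M351 and M9 below it, as did M408 for Sdhb. The log2 fold changes were -0.45 (edgeR adjusted p = 0.510) for Sdha and -0.37 (edgeR adjusted p = 0.487) for Sdhb, and -0.82 and -0.73 in the 7 tumors.

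The anchors Sdhc and Sdhd, which hold the heme and the ubiquinone site in the membrane, were instead highest in M624 and M664. Sdhc had 40.7, 50.8, 57.1 and 29.5 CPM in F187, F325, F331 and F368, 33.2, 37.9 and 31.1 CPM in M351, M408 and M9, and 117 and 106 CPM in M624 and M664. Sdhd had 16.6, 29.1, 34.9 and 32.0 CPM in the p53-driven tumors, 31.4, 26.7 and 12 CPM in M351, M408 and M9, and 100.1 and 130 CPM in M624 and M664. Outside M624 and M664 the groups overlapped for both anchors. Their log2 fold changes of 0.56 (edgeR adjusted p = 0.457) and 1.11 (edgeR adjusted p = 0.267) turned to -0.32 and -0.19 without M624 and M664.

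Complex III, the cytochrome bc1 complex, passes electrons from ubiquinol to cytochrome c. None of its 8 members was called by edgeR or DESeq2 in either set. At an unadjusted p under 0.05, 1 was lower in the 9 tumors, Uqcrb, and 0 in the 7. The median log2 fold change was 0.72 in the 9 tumors, the highest of the complexes, and -0.39 in the 7, and 7 of the 8 members were higher in M624 and M664 than in each other tumor. Uqcrb, a small subunit near the ubiquinone site, went the other way, with 52.5, 56.9, 71.0 and 39.3 CPM in F187, F325, F331 and F368, and 25.2, 55.9, 18.3, 12.7 and 17.9 CPM in M351, M408, M9, M624 and M664. Only M408 among the Myc knockin tumors reached the p53-driven range. The log2 fold change was -1.08 (standard error 0.42, edgeR adjusted p = 0.129) in the 9 tumors and -0.62 (edgeR adjusted p = 0.353) in the 7. In the comparison of 5 tumors it was called lower, at -1.85 (edgeR adjusted p = 0.0198), as were 12.1% of all genes. The values are uncertain because 16.4% of the 76-base windows of its transcripts occur in other genes.

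Uqcr11, a small supernumerary subunit, had the highest log2 fold change of complex III in the 9 tumors, and Uqcrc2 in the 7. It was 9.09, 8.87, 15.9 and 9.73 CPM in F187, F325, F331 and F368, 7.39, 10.3 and 7.97 CPM in M351, M408 and M9, and 31.1 and 65.5 CPM in M624 and M664. M624 and M664 were above all other tumors, and among those the genotypes overlapped. Its log2 fold change of 1.20 (standard error 0.64, edgeR adjusted p = 0.253) turned to -0.27 without them. The core proteins Uqcrc1 and Uqcrc2, the most abundant of the complex by mean CPM, had log2 fold changes of 0.79 (edgeR adjusted p = 0.396) and 0.65 (edgeR adjusted p = 0.396) in the 9 tumors, and -0.37 and 0.01 in the 7. Exons of Uqcrc2 overlap Pdzd9 on the opposite strand.

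Complex IV, cytochrome c oxidase, reduces oxygen, and many of its nuclear subunits come as a pair of a common and a tissue-restricted isoform. Of 19 members, 15 were tested in the 9 tumors. The filter on low counts left out Cox7a1, Cox7b2, Cox8b and Cox8c, and in the 7 tumors also Cox6a2 and Cox6b2. Over the tested members of complex IV the median was 0.57 in the 9 tumors and -0.14 in the 7. In the 7 tumors edgeR called 0 members in either direction, 0 were higher and 1, Cox6a1, was lower at an unadjusted p under 0.05, and DESeq2 called Cox6a1 lower.

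The member called higher in the 9 tumors was Cox6b2, the testis isoform of the Cox6b subunit, which sits on the side of the complex where cytochrome c docks. Its counts were 0, 4, 2 and 1 in F187, F325, F331 and F368, and 6, 9, 2, 158 and 34 in M351, M408, M9, M624 and M664. As CPM these were 0, 0.311, 0.173 and 0.122 in the p53-driven tumors and 3.69, 1.65, 1.59, 6.02 and 1.47 in the Myc knockin tumors. All Myc knockin tumors were above all p53-driven tumors, at a low level in both groups. The log2 fold change was 3.95 (standard error 0.87, edgeR adjusted p = 0.0330), and DESeq2 gave 4.00 with no adjusted p, since its filter on low counts removed the gene. Both are fitted values from few counts, and the counts of the Myc knockin tumors alone carried the gene past edgeR's filter, so that its call and its fold are given as a description of low counts. Reads from genomic DNA, judged from receptor genes that bone is not known to express, would account for 1.24 of the 6 counts in M351 and 1.36 of the 2 in M9. The call was lost without F187 (edgeR adjusted p = 0.0667), F325 (0.111), F331 (0.144) or F368 (0.178), and Cox6b2 did not pass the filter without M351, M408, M624 or M664.

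Within a tumor the pair of Cox6b isoforms can be compared without any scaling between libraries. For each 100 counts of Cox6b1, the common isoform, there were 0, 0.529, 0.232 and 0.246 counts of Cox6b2 in F187, F325, F331 and F368, and 7.06, 2.28, 6.67, 6.92 and 1.29 in M351, M408, M9, M624 and M664. The groups did not overlap, and without M624 and M664 they did not overlap either. No p is given for this ratio, since the counts of the Myc knockin tumors alone carried Cox6b2 past edgeR's filter. The ratios rest on 0 to 4 counts of Cox6b2 in the p53-driven tumors and on 2 in M9, of which 1.36 are expected from genomic DNA. These reads were not subtracted here, so the ratios too are a description of low counts. Cox6b2 lies at chr7:4751792-4753094 (ENSMUSG00000051811). Cox6b1 had a log2 fold change of 0.31 (edgeR adjusted p = 0.643), and -0.11 without M624 and M664. The ratio of Cox6b2 to Cox6b1 was 1 of 8 isoform ratios compared. Among the others the smallest exact permutation p was 0.302 in the 9 tumors and 0.286 in the 7.

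**Figure D3:**
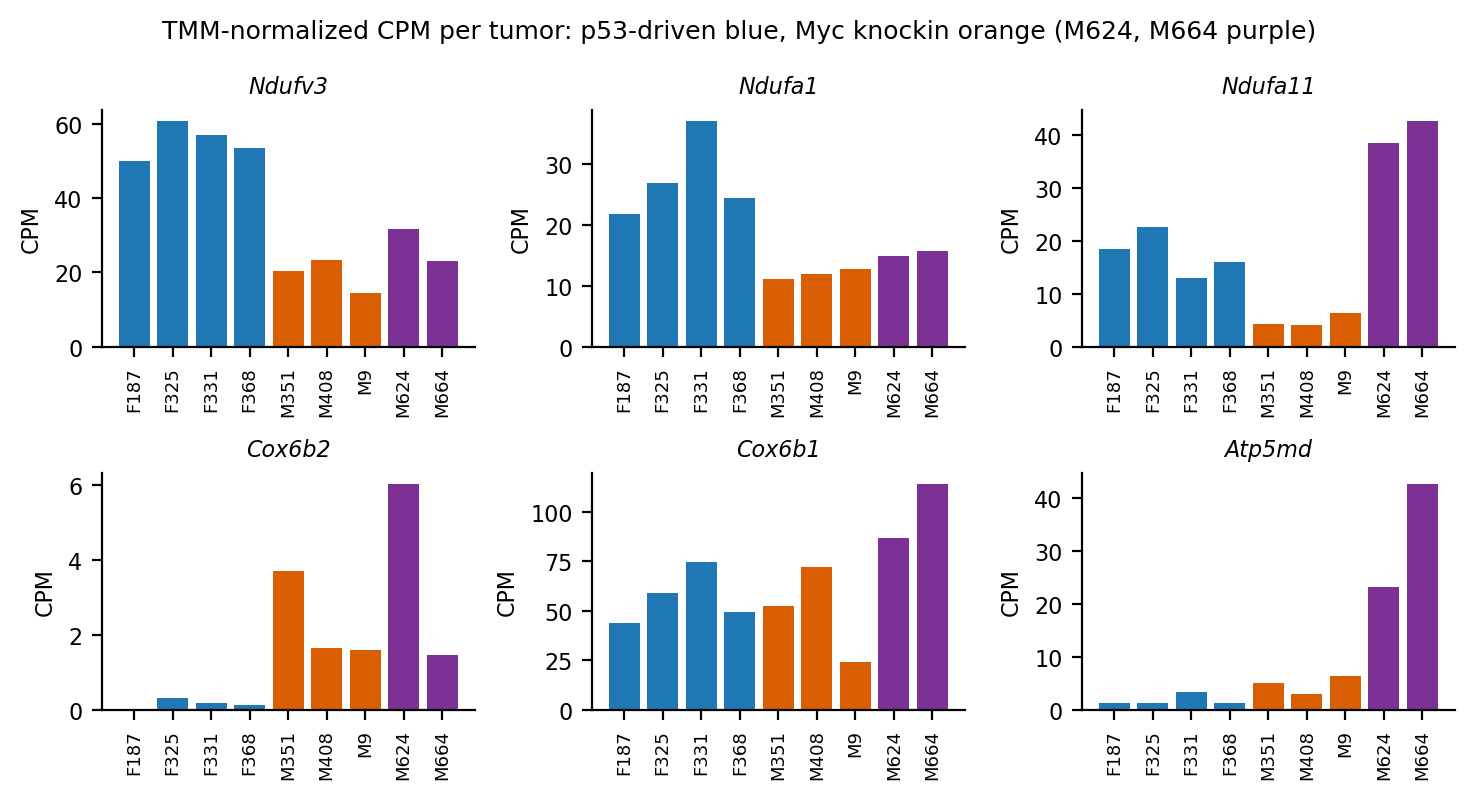
TMM-normalized CPM of 6 members in each tumor, with p53-driven tumors in blue, M351, M408 and M9 in orange, and M624 and M664 in purple. Ndufv3 and Ndufa1 are lower in all 5 Myc knockin tumors, Ndufa11 only in M351, M408 and M9, Cox6b2 is higher in all 5, and Cox6b1 and Atp5md are shown for comparison.

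Other isoform pairs followed single tumors. Cox6a2, the heart and muscle isoform, was 1.19, 22.8, 0.173 and 0.851 CPM in F187, F325, F331 and F368, and 0.616, 15.6, 3.19, 0.991 and 3.89 CPM in M351, M408, M9, M624 and M664. Only F325 and M408 stood out, and the log2 fold change was -0.36 (standard error 1.23, edgeR adjusted p = 0.885). Genes of skeletal muscle moved with it. The 11 muscle markers, of which the actin gene Acta1 was the most abundant, summed to 6083 CPM in F325 and 2708 CPM in M408, then 692 in M664, 613 in F368, 600 in M9, 141 in M351, 52.9 in F331, 19.8 in F187 and 3.96 in M624. None of the muscle markers was at 0 in F325, M408 or M9, and up to 2 were at 0 in the others. Of the 10 muscle markers tested, 0 were called by edgeR or DESeq2 and 0 reached an unadjusted p under 0.05, and their part in the result was not tested. Cox8b, also a muscle isoform, was highest in F325 as well, at 3.42 CPM, and at 0 to 1.68 CPM elsewhere.

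Cox6a1, the common partner of Cox6a2 and on average the most abundant member of complex IV per exon length, was 102 to 115 CPM in p53-driven tumors, 67.1, 63.7 and 55.0 CPM in M351, M408 and M9, and 195 and 228 CPM in M624 and M664. The gene gave a log2 fold change of 0.15 (edgeR adjusted p = 0.863) in the 9 tumors and -0.77 (standard error 0.22, edgeR adjusted p = 0.0709) in the 7, with the groups not overlapping in the 7. Cox4i1, the common form of the regulatory subunit Cox4, had 355 and 348 CPM in M624 and M664 and 57.3 to 115 CPM in the other 7 tumors. Its log2 fold change was 1.10 (edgeR adjusted p = 0.258), and -0.21 without M624 and M664. Cox4i2, the form known from lung and low oxygen, gave 0.73 (edgeR adjusted p = 0.558) and -1.08 (edgeR adjusted p = 0.271). Cox4i2 came to 7.29 to 15.2 counts for each 100 of Cox4i1 in p53-driven and 1.55 to 14.0 in Myc knockin tumors, without a difference beyond the spread (two-sided exact permutation test, p = 0.3175).

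For the remaining isoforms no difference was detectable. Cox7a2 had a log2 fold change of 1.05 (edgeR adjusted p = 0.238), Cox7b of -0.08 (edgeR adjusted p = 0.898) and Cox8a of 0.65 (edgeR adjusted p = 0.471). Without M624 and M664 these were 0.14, 0.04 and -0.51. In the comparison of F325, F331 and F368 with M624 and M664, edgeR called Cox7a2 (1.80, adjusted p = 0.0236) and Cox8a (1.61, adjusted p = 0.0269) higher, but not Cox7b. There 15.7% of all genes were called higher, and genotype and kind of library cannot be told apart. Cox7a1, the muscle partner of Cox7a2, stood at 0 to 1.28 CPM, Cox7b2 at 0 to 1.59 CPM, and Cox8c, a testis form, had counts in M351 alone (0.616 CPM). Exact two-sided permutation tests over the tumors gave p = 0.714 for Cox7a1, 0.397 for Cox7b2, 0.873 for Cox8b and 1 for Cox8c. Their levels were near the floor of the shallow libraries, so differences of their size were not detectable at this depth. Cox7c, which was named after its values were seen, had the second largest log2 fold change of the complex in the 9 tumors, 2.07 (standard error 0.65, edgeR adjusted p = 0.0770), and DESeq2 called it higher (adjusted p = 0.0141). Without M624 and M664 it was 0.91 (edgeR adjusted p = 0.346). It was 1.58 to 3.95 CPM in p53-driven tumors, 2.46 to 5.86 CPM in M351, M408 and M9, and 15.5 and 21.1 CPM in M624 and M664, and 19.5% of its transcript windows occur in other genes.

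Complex V makes ATP and had the largest share of the members' summed CPM in every tumor but F187, where complex I had it. None of its 17 members was called by edgeR in either set of tumors. At an unadjusted p under 0.05, 1 was higher in the 9 tumors and 1 lower in the 7, and DESeq2 called 1 higher in the 9, Atp5md, and 0 in the 7. The median log2 fold change was 0.40 in the 9 tumors and -0.22 in the 7. Its catalytic subunits were the most abundant members of all by CPM. Atp5b, the beta subunit, was 269, 457, 535 and 311 CPM in F187, F325, F331 and F368, 423, 414 and 196 CPM in M351, M408 and M9, and 1610 and 1004 CPM in M624 and M664. Atp5a1, the alpha subunit, was 249, 214, 331.3 and 256 CPM in the p53-driven tumors, 262, 324 and 116 CPM in M351, M408 and M9, and 753 and 734 CPM in M624 and M664. For both, the 7 other tumors overlapped and M624 and M664 were apart. The log2 fold changes of 0.89 (standard error 0.58, edgeR adjusted p = 0.346) and 0.74 (standard error 0.51, edgeR adjusted p = 0.377) became -0.13 and -0.10 without the pair.

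The extremes of complex V in the 9 tumors were small subunits of its membrane part. Atp5md stood at 1.19, 1.17, 3.37 and 1.22 CPM in F187, F325, F331 and F368, 4.92, 2.93 and 6.37 CPM in M351, M408 and M9, and 23.1 and 42.6 CPM in M624 and M664. M408 overlapped with F331, and the other Myc knockin tumors were above all p53-driven ones. Its log2 fold change of 3.20 (standard error 0.83) just missed the threshold (edgeR adjusted p = 0.0501), and was 1.43 (standard error 0.66, edgeR adjusted p = 0.210) in the 7 tumors. The counts in F187, M351 and M9 were 3, 8 and 8, of which reads from genomic DNA would account for 1.94, 3.08 and 3.39, and its exons overlap Taf5 on the opposite strand. Atp5k, the lowest by log2 fold change in the 9 tumors (Atp5g1 in the 7, at -0.72), had 20.1, 27.8, 27.0 and 20.7 CPM in the p53-driven tumors and 17.9, 22.7, 19.1, 15.3 and 13.3 CPM in M351, M408, M9, M624 and M664. Its log2 fold change was -0.45 (standard error 0.27, edgeR adjusted p = 0.308), and -0.20 without M624 and M664.

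Setting the complexes against each other within a tumor avoids scaling between libraries. Complex V took 32.1% to 35.5% of the members' summed CPM in p53-driven tumors, and 38.7%, 38.0%, 35.8%, 45.6% and 38.9% in M351, M408, M9, M624 and M664. Complex I took 34.4%, 33.2%, 31.1% and 32.6% in F187, F325, F331 and F368, and 31.2%, 28.5%, 31.7%, 22.9% and 24.7% in the Myc knockin tumors in the order above. Every Myc knockin tumor had a larger share for complex V than every p53-driven tumor, M9 by the least, and for complex I M351 and M9 overlapped with F331. The share of complex V in M9, 35.8% against 35.5% in F368, rests on 957 of 2673 counts. Reads from genomic DNA would account for 7.67% of the members' counts in M9 and were not subtracted from these shares. The shares of complex IV, 16.02% to 17.5% and 16.4% to 19.3%, and of complex III overlapped, and complex II took 7.76% to 8.62% in p53-driven and 5.35% to 7.62% in Myc knockin tumors. No test was made of the shares, and no separation of the groups is claimed from them.

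When each member counted equally, as the mean log2 CPM over the tested members of a complex, complex V was above complex I by 0.27, 0.39, 0.41 and 0.41 in F187, F325, F331 and F368, and by 0.60, 0.75, 0.99, 1.08 and 0.86 in M351, M408, M9, M624 and M664. Complex IV relative to complex I was -0.40, -0.18, -0.50 and -0.48 in the p53-driven tumors, and -0.05, 0.32, 0.23, 0.39 and 0.32 in the Myc knockin tumors. For both complexes the groups were apart, the lowest Myc knockin tumor being above the highest p53-driven tumor by 0.19 for complex V and 0.13 for complex IV, and by 0.03 and 0.02 when reads expected from genomic DNA were subtracted. No test was made of these means, since members of a complex are not replicates. The separation rested on members with few counts. Without Cox6b2, complex IV relative to complex I was 0.22 in F325 and 0.12 in M351, so that the groups overlapped (-0.10). With the members that had at least 10 counts in every tumor, the lowest Myc knockin tumor was below the highest p53-driven tumor by a difference of -0.11 for complex V and -0.06 for complex IV, and with medians in place of means by -0.29 for complex V, but not for complex IV (0.10). No separation of the groups by complex IV or V is therefore claimed from these means. Complexes II and III relative to complex I overlapped between the groups.

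**Figure D4:**
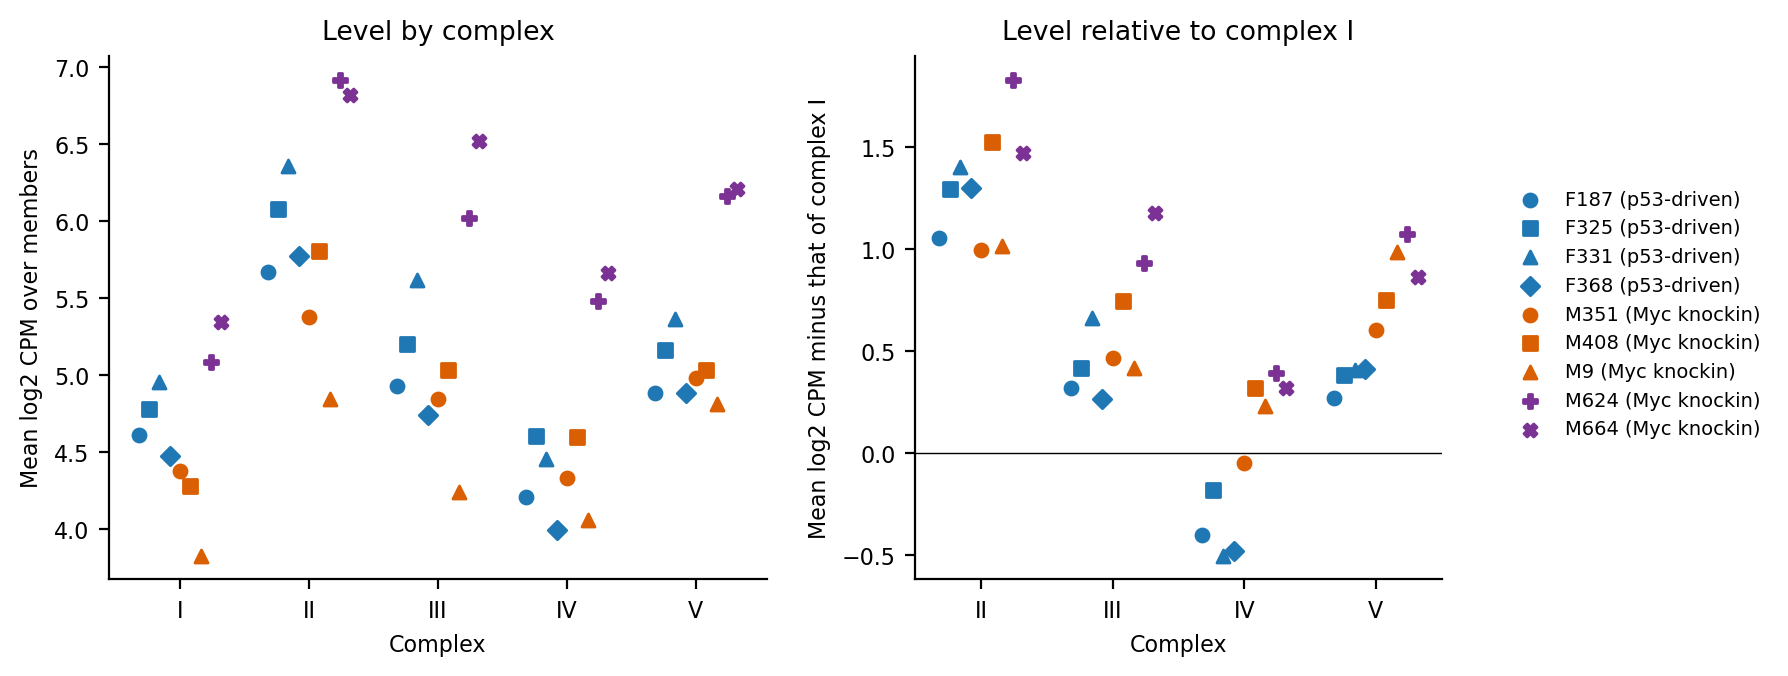
Left, mean log2 CPM over the tested members of each complex in each tumor, and right, the same relative to complex I in that tumor. Each symbol is 1 tumor (blue p53-driven, orange and purple Myc knockin), with M624 and M664 highest for every complex at the left, and complexes IV and V apart between the groups at the right. This separation did not hold for complex IV without Cox6b2, for complex V with medians, or for either with members of at least 10 counts in every tumor.

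Several members share sequence with other genes, and counts can move between them. For Cox5b-ps, listed as protein coding in the table, 42.2% of the 76-base windows of its transcripts occurred in another gene, for Atp5g2 35.7%, Atp5o 33.9%, Ndufb6 27.6%, Ndufa13 25.5%, Cox7c 19.5%, Ndufb4 17.1%, Uqcrc2 16.5%, Uqcrb 16.4% and Ndufs5 15.5%, so the values of these members are uncertain. Under 10% was shared for 70 members. Another 15 genes with such names are not protein coding, all of them processed pseudogenes, which are copies of a transcript put back into the genome. Atp5pb-ps had 53.9 to 76.5 counts for each 100 of its parent Atp5pb in the 7 tumors other than M624 and M664, and 3.30 and 3.85 in those. Cox5b-ps had 44.9 to 54.7 counts for each 100 of Cox5b in the same 7 and 19.7 and 18.3 in M624 and M664. For these copies the share of reads was thus lower in M624 and M664, but not for Ndufa12-ps, with 120 and 133 counts for each 100 of Ndufa12 in M624 and M664 and 105 to 231 in the others. Ndufs5 differed between M624 and M664 themselves, with 0.610 and 12.7 CPM, and its copy Ndufs5-ps had 4731 and 125 counts for each 100 of Ndufs5.

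All 13 subunits encoded by mitochondrial DNA were listed at 0 counts in every tumor, as were all 37 mitochondrial genes of the table. Mitochondrial transcripts are abundant in most tissues, so these zeros give no level for the mitochondrial subunits of the complexes, and the 2 genomes could not be compared.

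Medians of the lists of genes around the chain were lower without M624 and M664 and kept their sign. Of 14 chain genes that the symbol rule for members does not take in, such as those of cytochrome c and of electron transfer flavoprotein, 13 were tested and 0 called by edgeR. At an unadjusted p under 0.05, 2 were higher and 1 lower, and DESeq2 called 1 higher. Their log2 fold changes ran from -0.60 for Etfdh, which feeds electrons from fatty acid oxidation to ubiquinone (edgeR adjusted p = 0.139), to 2.12 for Dhodh, the pyrimidine synthesis enzyme that reduces ubiquinone (edgeR adjusted p = 0.0509), and these genes gave -0.51 and 1.24 in the 7 tumors. In the 7, edgeR and DESeq2 called 0 of the 13, and 1 was higher at an unadjusted p under 0.05. The list's median was 0.37 in the 9 tumors and 0.07 in the 7. Of 48 assembly factors tested, 0 were called by edgeR, with 9 higher and 1 lower at an unadjusted p under 0.05 (14.9% and 11.8% of all genes) and 2 higher by DESeq2, and the median was 0.51. Over the 46 tested in the 7 tumors the median was 0.09, with 0 called by edgeR or DESeq2 and 4 higher and 2 lower at an unadjusted p under 0.05. Sdhaf4, which helps to assemble succinate dehydrogenase, was lowest at -0.68 (edgeR adjusted p = 0.457), and -1.40 in the 7, and Cox16, an assembly factor of complex IV, highest at 1.81 (edgeR adjusted p = 0.0935), and not tested in the 7. The 13 Krebs cycle genes had a median of -0.11, and -0.32 in the 7 tumors, with 0 called by edgeR or DESeq2 in the 9 tumors and 1 higher at an unadjusted p under 0.05. In the 7, edgeR called 0, DESeq2 1 lower, and 2 were lower at an unadjusted p under 0.05. They ran from -0.50 for Ogdh, a subunit of the oxoglutarate dehydrogenase complex, to 1.00 for Suclg2, a subunit of succinyl-CoA ligase, and these were -0.79 and 0.59 in the 7.

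Of 20 regulators of mitochondrial gene expression, 1 was called higher by edgeR in both sets of tumors. At an unadjusted p under 0.05, 6 were higher and 1 lower in the 9 tumors and 4 higher in the 7, and DESeq2 called 4 and 2 higher. The gene called by edgeR was Twnk, the helicase that unwinds mitochondrial DNA for replication. It was 11.9, 9.41, 11.2 and 10.7 CPM in F187, F325, F331 and F368, and 23.4, 33.2, 17.5, 44.0 and 33.4 CPM in M351, M408, M9, M624 and M664. The Myc knockin tumors, with or without M624 and M664, were all above the p53-driven ones, with a log2 fold change of 1.51 (standard error 0.31, edgeR adjusted p = 0.0288) and of 1.29 (standard error 0.28, edgeR adjusted p = 0.0418) without the pair. The call was lost when F187, F325, F331 or F368 was left out of the 9 tumors, with log2 fold changes of 1.54, 1.46, 1.54 and 1.49. The coactivator genes Ppargc1a and Ppargc1b, known to drive mitochondrial biogenesis, were the extremes of this list at 1.92 (edgeR adjusted p = 0.254) and -0.99 (edgeR adjusted p = 0.129). Without M624 and M664 they were 2.64 (edgeR adjusted p = 0.113) and -0.86 (edgeR adjusted p = 0.245), and neither passed the test in either set. Ppargc1a was highest in M9 at 9.56 CPM and lowest in F331 at 0.0865 CPM.

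Genes of other cells in the tumors also differed between the groups, and are given here beside the lower members of complex I. Of 8 osteoclast genes, 6 were called lower in Myc knockin tumors by edgeR in the 9 tumors and 7 in the 7. Osteoclasts, which resorb bone, are rich in mitochondria. The summed level of the osteoclast genes was 7242, 5216, 14150 and 2716 CPM in F187, F325, F331 and F368, and 352, 261, 124, 287 and 2570 CPM in M351, M408, M9, M624 and M664, and 1 of the genes was at 0 in M408 and none elsewhere. Mmp9 was the largest part of it in every tumor but M351, where Ctsk was. Of 10 osteoblast genes, 2 were called lower in the 9 tumors and 4 in the 7. Of 7 macrophage genes, led by Csf1r, 3 were called lower in both sets, with sums of 658 to 1192 CPM in p53-driven and 160 to 491 CPM in Myc knockin tumors and no gene at 0. The others were not called and differed in sign. The log2 fold change was 1.13 in the 9 tumors and 1.23 in the 7 for Cd14, and 0.17 and -0.56 for C1qa. It was -0.68 and -0.69 for Adgre1, and -0.90 and -0.27 for Mrc1. Of 4 leukocyte genes, led by Laptm5, edgeR called 0 in the 9 tumors (2 lower and 1 higher at an unadjusted p under 0.05, and 2 lower by DESeq2) and 1 lower in the 7, with sums of 217 to 394 and 50.8 to 209 CPM. The part of these cells in the lower members was not tested.

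M624 and M664, which were high for most members, stood out for genes of red cells. The 6 red cell genes, led by the globin gene Hba-a1, summed to 216 CPM in M624 and 783 CPM in M664, where none was at 0. In the other 7 tumors they summed to 3.56 to 31.7 CPM, with 3 or 4 of the 6 at 0. Cartilage genes, led by Col2a1, summed to 2661 CPM in F331 and to 15.1 to 131 CPM elsewhere. Brown fat genes, which mark the tissue with the most mitochondria, summed to 6.37 CPM or less in every tumor, and Elovl3 was the largest of the 3. White fat genes, led by Fabp4, summed to 74.5 to 399.7 CPM in p53-driven and 8.80 to 145 CPM in Myc knockin tumors, slow muscle and heart genes, led by Myh7, to 169 CPM in F325 and 1.38 to 60.6 CPM elsewhere, and endothelial genes, led by Cdh5, to 272 to 401 and 65.8 to 347 CPM. No gene of these lists was called by edgeR or DESeq2 in the 9 tumors (0 of 2, 2, 3, 3 and 1 tested for white fat, slow muscle and heart, endothelium, cartilage and red cells, with no brown fat gene tested), and at an unadjusted p under 0.05 there was 1 lower gene each for white fat, endothelium and cartilage. In the 7 tumors, DESeq2 called 1 endothelial gene lower, and 2 were lower at an unadjusted p under 0.05. In the comparison of F325, F331 and F368 with M624 and M664, edgeR called 4 of 5 tested red cell genes higher, against 15.7% of all genes. Their part in the result was not tested.

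Promoter sequences from RefSeq (build GRCm38.p6, 250 bases before to 50 after the start of transcription) were found for 68 of the 86 members. They were searched on both strands for CACGTG (the E-box that MYC and MAX bind), CGCATGCG (the core of the NRF1 site), CCGGAAGT (an ETS site) and AAGATGGCG (a YY1 site), and no motif here contains another. A match is a description, not a site or a cause. The E-box was found in 8.82% of the members and in 9.16% of 16802 protein-coding genes of the table with a promoter, that is, at about the same share. The NRF1 core was found in 13.2% of members and 2.88% of the genes, the YY1 site in 10.3% and 2.22%, and the ETS site in 7.35% and 5.87%. Over all 27025 genes with a RefSeq promoter the shares were 8.09% for the E-box, 2.07% for the NRF1 core, 1.64% for the YY1 site and 4.31% for the ETS site. By complex, the E-box was found for 2 of 32 members of complex I, for 4 of 15 of complex V, and for none of the 3, 5 and 13 members of complexes II, III and IV.

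The NRF1 core is shown for members of complexes I, IV and V that the results above turn on or that lie beside them, since its share in the members differed from that in all genes by the most percentage points. The sequences read in the direction of transcription, with the motif in capitals and up to 10 bases to each side.
Ndufa11: ctgcactgcgCGCATGCGcgcacgcctt
Cox6a1: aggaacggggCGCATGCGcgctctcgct
Atp5k: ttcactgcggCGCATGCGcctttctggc
Atp5j: ggccagaataCGCATGCGtacagtgcag
The Ndufa11 match lies at chr17:56717693-56717720, 59 bases before the start, the Cox6a1 match at chr5:115349102-115349129, 161 bases before it, the Atp5k match at chr5:108434431-108434458, 49 bases before it, and the Atp5j match at chr16:84835106-84835133, 147 bases before it. These genes were all negative in the 7 tumors and differed in sign in the 9, and Atp5l, whose promoter also holds the NRF1 core, was positive in both (0.72 and 0.58). Atp5g2, which holds it too, was 0.85 in the 9 tumors and not tested in the 7. The core was found in 9 members, 2 of them in complex III, and the values given here do not cover them all. In the 7 tumors the log2 fold change was -1.83 for Ndufa11, -0.77 for Cox6a1, -0.20 for Atp5k and -0.48 for Atp5j, and in the 9 tumors 0.18, 0.15, -0.45 and 0.04.

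The E-box is shown because the groups differ in Myc. It was present before the start of genes of complexes I and V, and none of the members that edgeR called in the 9 or the 7 tumors is among them, while Ndufv1, Ndufa7 and Atp5g1 were called higher in the comparison of 5 tumors. In that comparison 30 of 84 tested members and 15.7% of all genes were called higher, and genotype and kind of library cannot be told apart.
Ndufv1: cagagggcgaCACGTGagcctggttt
Ndufa7: ggagaggagtCACGTGagcaggggat
Atp5g1: ggactccgaaCACGTGggtgggggag
Atp5l: caggattcttCACGTGttatcgcgcc
Ndufv1, the subunit that binds NADH, has its match at chr19:4012909-4012934, Ndufa7, an accessory subunit, at chr17:33824490-33824515, Atp5g1, which encodes subunit c of the rotating ring, at chr11:96075660-96075685, and Atp5l, a subunit of the membrane part, at chr9:44920874-44920899. The log2 fold changes were 1.07, 0.40, 0.40 and 0.58 in the 9 tumors and -0.27, -0.16, -0.72 and 0.72 in the 7. The other members with an E-box, Atp5g3 and Atp5pb, gave 0.17 and 0.18 in the 9 tumors and -0.29 and -0.19 in the 7, so that all 6 were positive in the 9 tumors and 5 of 6 negative in the 7.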

How the data were processed

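The counts are the numbers of reads per gene that the authors deposited, without normalization, for 9 tumors. Per the submitters' notes, mRNA was enriched with oligo-dT, reads were trimmed with Trim Galore, mapped with STAR to mm10 and counted with featureCounts. The kit is stated as stranded, but the strand setting of the counting and the treatment of multi-mapping reads are not given in the sources used here. The table's columns carry no sample numbers. The study's supporting data list F187, F325, F331, F368, M408 and M624 by genotype, and M351, M9 and M664 were placed by their letter.

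Differential expression was tested with edgeR 4.0.16 in R 4.3.3 (TMM, filterByExpr with a minimum count of 10, glmQLFit and glmQLFTest), with p adjusted by Benjamini-Hochberg over all genes tested and a call made for a fold change over 1.5 with an adjusted p below 0.05. Every adjusted p is edgeR's unless DESeq2 (1.42.0) is named. Log2 CPM used a prior count of 2. Standard errors were taken from the F statistic. Isoform ratios, with no p given for that of Cox6b2, were compared by two-sided exact permutation over 126 arrangements of 9 tumors or 35 of 7. Levels per kilobase and shared 76-base windows came from GENCODE annotation of the same genome, which held 55034 of the 55367 gene identifiers. Reads from genomic DNA were estimated from counts per kilobase on 1488 chemosensory receptor genes. Floors cover counting error only. The test code was checked on simulated data.

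Named were Myc, members called in either set of tumors, the highest and lowest log2 fold change and the pair of highest mean CPM per complex, all Sdh genes, isoform pairs, members left out by the filter, and the called genes and extremes of the other lists. A gene under this rule is not reported here. The members and lists were chosen with earlier results of these data known. Removal of F325 and M408, subtraction of genomic background, the restriction to members with little shared sequence, and the other ways of setting complexes against each other were chosen after seeing the data.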

Additional observations from a re-analysis of the deposited data

Results flagged for a closer look

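In 4 of 70 groups of values examined (members with enough counts, in each genotype), 1 tumor lay far from the rest of its group, and chance alone gives about 1 in 20. Uqcr11 was 15.9 CPM in F331, apart from the other p53-driven tumors. Cox6a2 was 22.8 CPM in F325 among the p53-driven tumors and 15.6 CPM in M408 among the Myc knockin tumors. Atp5md was 3.37 CPM in F331, above the other p53-driven tumors. The causes were not tested.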

How the results depend on the processing

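Leaving out M624 and M664 reversed more of the named genes than any other alternative run. Members called higher went from 1 to 0. The median log2 fold change over all complexes went to -0.29, and to -0.37, -0.52, -0.39, -0.14 and -0.22 for complexes I to V. The log2 fold change reversed for Ndufa10 (-0.08), Ndufa11 (-1.83), Ndufa4l2 (-1.48), Sdhc (-0.32), Sdhd (-0.19), Uqcr11 (-0.27), Uqcrc1 (-0.37), Cox4i1 (-0.21), Cox4i2 (-1.08), Cox6a1 (-0.77), Cox6b1 (-0.11), Cox7b (0.04), Cox8a (-0.51), Atp5a1 (-0.10) and Atp5b (-0.13).

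Without F187, M351, M408 and M9, the libraries with satellite reads, 30 members were called higher in place of 1, 17 named genes came to pass the test, the median for complex III was 1.49, and Ndufa4 (0.22), Sdhb (0.06) and Sdhaf4 (0.02) reversed.

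Members called higher were 2 with upper-quartile normalization, 0 with library size alone, 0 when every tumor had to have 10 counts, 2 with DESeq2, 0 without F325 and M408, and 2 with the genomic background subtracted. Members called lower were 0 with library size alone, 0 with all genes of at least 1 count, 1 with satellite genes removed, 0 without F325 and M408, and 1 with the background subtracted. In the 7 tumors members called lower were 1 with library size alone, 6 with all genes of at least 1 count and 6 with DESeq2. Cox7b reversed to 0.01 with upper-quartile normalization, 0.03 when every tumor had to have 10 counts, and 0.05 with the background subtracted.

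Leaving out each tumor in turn gave 0 to 2 members called higher, 0 to 2 called lower, and 0 to 3 called lower in the 7 tumors. Medians in the 9 tumors ran from 0.075 to 0.43 over all members, -0.16 to 0.20 for complex I and -0.08 to 0.28 for complex II. They ran from 0.35 to 1.03 for complex III, 0.19 to 0.75 for complex IV and 0.16 to 0.58 for complex V, each lowest without M664. Log2 fold changes ran from -0.31 to 0.49 for Ndufa11, -0.19 to 0.35 for Cox6a1 and -0.22 to 0.13 for Cox7b.

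The lowest Myc knockin minus the highest p53-driven tumor, for complexes relative to complex I, was -0.06 for complex IV with members that had 10 or more counts throughout and -0.10 without Cox6b2, -0.11 for complex V with those members and -0.29 for complex V with medians. With the members that share under 10% of their windows it was 0.14 for complex IV and 0.17 for complex V.

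The median log2 fold change of all genes tested was 0.24 with upper-quartile normalization and 0.97 with all genes of at least 1 count, and in the 7 tumors -0.55 with library size alone, 0.25 with upper-quartile normalization and 1.30 with all genes of at least 1 count. No paired analysis was possible because the columns of the table carry no replicate numbers. Removal of F325 and M408, background subtraction and the alternatives for complexes relative to complex I were chosen after seeing the data.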
